A study of Mus musculus with 36 samples.

Results

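Of the 18049 genes in the deposited count table, 10 genes of mouse chromosome 17 are described here: Dynlt1b, Tagap, Rsph3a, Park2, Prss41, Prss22, Abca3, Rnps1, Decr2 and Grm4. All lie within 20 Mb of Pkd1, and they were picked because their measured levels shifted alike in the kidneys of both genotypes that carry the RC allele of Pkd1. The other 527 listed genes of that stretch, on either side of Pkd1, serve as the comparison. RNA came from whole kidneys of C57BL/6 mice in 4 genotypes, each on the day of birth (P0) and on days 3 (P3) and 12 (P12) after it, with 3 libraries in each of the 12 groups and 36 in all. Digenic mice carry both the homozygous RC allele of Pkd1 and the loss of Pkhd1, Pkd1-RC/RC mice carry the RC allele alone, Pkhd1-/- mice lack Pkhd1 alone, and WT mice are the unmutated controls. Digenic and Pkd1-RC/RC kidneys are called carriers below (6 libraries per age), and Pkhd1-/- and WT kidneys non-carriers (6 per age). The RC allele is a reduced-function point allele in the germ line, so that carrier mice have it in every cell. The sources used here do not say how the allele was bred into the strain, and the allele cannot be told apart from the chromosome 17 DNA inherited with it, since no group has one without the other. Nothing in the labels says that mice of different groups were littermates.

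Pkd1 encodes polycystin-1, a large membrane protein of tubule cells whose loss leads to kidney cysts, and Pkhd1 encodes fibrocystin, the protein lost in recessive polycystic disease. Genes that lie close together on a chromosome are inherited together, so animals that share a selected allele also share the DNA around it. The 10 genes belong to no common pathway. Dynlt1b is a light chain of the motor dynein, and Rsph3a is a radial spoke protein of motile cilia. Rnps1 is an RNA-binding protein that helps to mark spliced messengers. Abca3 moves phospholipid into the lamellar bodies of lung cells, and Decr2 is a peroxisomal reductase used in the breakdown of unsaturated fatty acids. Prss22 and Prss41 are trypsin-like serine proteases. Tagap is a GTPase-activating protein known from T cells, Park2 encodes the ubiquitin ligase parkin, and Grm4 is a metabotropic glutamate receptor known from neurons.

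For 4 of the 10 genes part of the messenger is almost the same as that of another gene, and the sequences are shown because reads from such stretches cannot be assigned with certainty. The coding sequence of Dynlt1b is 339 bases long and differs at 1 base from that of Dynlt1a, Dynlt1c and Dynlt1f, which lie on the same chromosome. The first 60 coding bases hold that difference, given as the capital letter (GENCODE M21 transcripts, GRCm38, 5′ to 3′).
Dynlt1b: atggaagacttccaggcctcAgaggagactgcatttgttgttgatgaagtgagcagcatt
Dynlt1a: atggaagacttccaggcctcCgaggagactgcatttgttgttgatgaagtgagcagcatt
Dynlt1c: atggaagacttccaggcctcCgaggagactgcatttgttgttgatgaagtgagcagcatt
Dynlt1f: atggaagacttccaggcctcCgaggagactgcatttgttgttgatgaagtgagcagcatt

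Rsph3a and Rsph3b shared 99.2% of 1548 aligned coding bases, and 5 of the 13 differences fall in the 60 bases shown, in capitals.
Rsph3a: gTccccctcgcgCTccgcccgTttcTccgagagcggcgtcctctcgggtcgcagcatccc
Rsph3b: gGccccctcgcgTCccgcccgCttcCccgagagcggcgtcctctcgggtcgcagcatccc

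Tagap and Tagap1 shared 97.6% of 1513 aligned coding bases, and 2 of the 37 differences fall in these 60 bases.
Tagap: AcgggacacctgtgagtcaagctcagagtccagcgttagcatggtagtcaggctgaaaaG
Tagap1: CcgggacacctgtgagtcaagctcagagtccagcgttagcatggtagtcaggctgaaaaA

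Rnps1 has a near copy on chromosome 6, the processed pseudogene Gm9825, an intron-free copy of a messenger. It matched the coding sequence of Rnps1 at 838 of 843 aligned bases, and 2 of the 5 differences fall in these 60 bases, in capitals.
Rnps1: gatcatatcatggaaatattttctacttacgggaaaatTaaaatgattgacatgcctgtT
Gm9825: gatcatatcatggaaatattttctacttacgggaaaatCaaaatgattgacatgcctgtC

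The share of a gene's sequence that is also found elsewhere was taken as the share of its 50-base words, counted over its protein-coding transcripts, that occur on either strand in a transcript of any other gene. It was 83.2% for Dynlt1b, 78.2% for Rsph3a, 57.5% for Tagap, 28.7% for Rnps1, 14.1% for Abca3 and 2.58% for Decr2. For Abca3 it came mostly from D330041H03Rik, which overlaps it on the opposite strand. It was 0 for Grm4, Park2, Prss22 and Prss41, and with 150-base words, the length of the reads, also for Decr2.

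Total counts ran from 51411240 to 80789299 per library over the listed genes, and no pair of libraries was identical. Neither genotype label could be checked on Pkd1 itself, since a point allele need not change the level of its own messenger. Pkd1 averaged 64.7 ± 10.7, 70.6 ± 10.05 and 84.1 ± 11.6 CPM (counts scaled to the size of the library) in carriers at P0, P3 and P12, and 55.02 ± 8.48, 66.7 ± 6.41 and 87.5 ± 8.88 CPM in non-carriers (SD, n = 6 each), with overlapping groups at each age. All 11 kidney markers were listed, summing to 3333 to 10390 CPM. In 2 P12 libraries the column header disagrees with the labels, which were used: Digenic replicate 1 has a header with another age, and Pkd1-RC/RC replicate 2 one with another genotype. The genes were chosen with both libraries counted as labelled, so their levels are no check of these labels. Counts of Y-linked genes gave a sex other than that in the header for 5 of 36 libraries. By the headers, all Digenic libraries at P3 were female and all Pkd1-RC/RC libraries at P3 and P12 male, so that sex and genotype cannot be told apart between Digenic and Pkd1-RC/RC kidneys at P3 if the headers hold. Summed adrenal markers were at 2.82 to 526.7 CPM, with the highest library of an age between 168.4 and 526.7 CPM in carriers and between 146.8 and 370.0 CPM in non-carriers.

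Per length of transcript the genes differed widely in level. In Digenic kidneys at P12 Abca3 was highest at 64.4 ± 11.1 RPKM (CPM per kilobase of transcript), then Decr2 at 18.4 ± 1.51 RPKM (SD, n = 3 each). Rnps1 at 12.9 ± 0.842 and Dynlt1b at 11.6 ± 1.02 RPKM overlapped, and Rsph3a followed at 3.09 ± 0.288 RPKM. In WT kidneys at P12 Abca3 was likewise highest at 35.3 ± 2.31 RPKM, then Decr2 at 26.5 ± 2.76, Rnps1 at 18.05 ± 1.03, Rsph3a at 6.78 ± 0.475, Dynlt1b at 2.61 ± 0.437 and Tagap at 1.16 ± 0.121 RPKM (SD, n = 3 each). Park2 at 0.383 ± 0.0541 and Prss22 at 0.290 ± 0.0544 RPKM overlapped, while Grm4 at 0.0694 ± 0.00353 and Prss41 at 0.0317 ± 0.0171 RPKM were lowest and did not overlap.

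The levels that follow are CPM, scaled by TMM over the 36 libraries, and each fold change is a log2 value with its SE from edgeR's quasi-likelihood fit of the 12 libraries of an age. Because the 10 genes were selected on the difference between carriers and non-carriers, these values and the later counts describe that difference, with no p for any single gene. In whole kidneys a smaller number of cells of a type and less RNA per cell cannot be told apart.

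Dynlt1b was higher in carriers. At P12 its libraries read 9.80, 8.51 and 8.39 CPM in Digenic and 9.24, 11.8 and 8.27 CPM in Pkd1-RC/RC kidneys, against 1.92, 1.51 and 2.77 CPM in Pkhd1-/- and 2.33, 2.03 and 1.66 CPM in WT kidneys. Every carrier library stood above every non-carrier library. The log2 difference reached 1.37 ± 0.236 at P0, then 1.65 ± 0.155 at P3 and 2.20 ± 0.155 at P12. At P0 the groups overlapped, because Pkd1-RC/RC replicate 3 at 5.14 CPM lay below WT replicate 2 at 5.40 CPM. Most of the sequence of Dynlt1b is shared, so its level is uncertain.

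Rsph3a was lower in carriers and did not overlap at any age. At P3 it read 5.75, 6.07 and 5.45 CPM in Digenic and 5.41, 6.45 and 6.08 CPM in Pkd1-RC/RC kidneys, against 13.02, 12.5 and 11.4 CPM in Pkhd1-/- and 12.1, 13.3 and 12.7 CPM in WT kidneys. The mean level in carriers was 0.458, 0.469 and 0.491 times that in non-carriers at P0, P3 and P12, with log2 differences of -1.11 ± 0.124, -1.10 ± 0.0787 and -1.03 ± 0.0739. It too is uncertain, through Rsph3b.

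**Figure D1:**
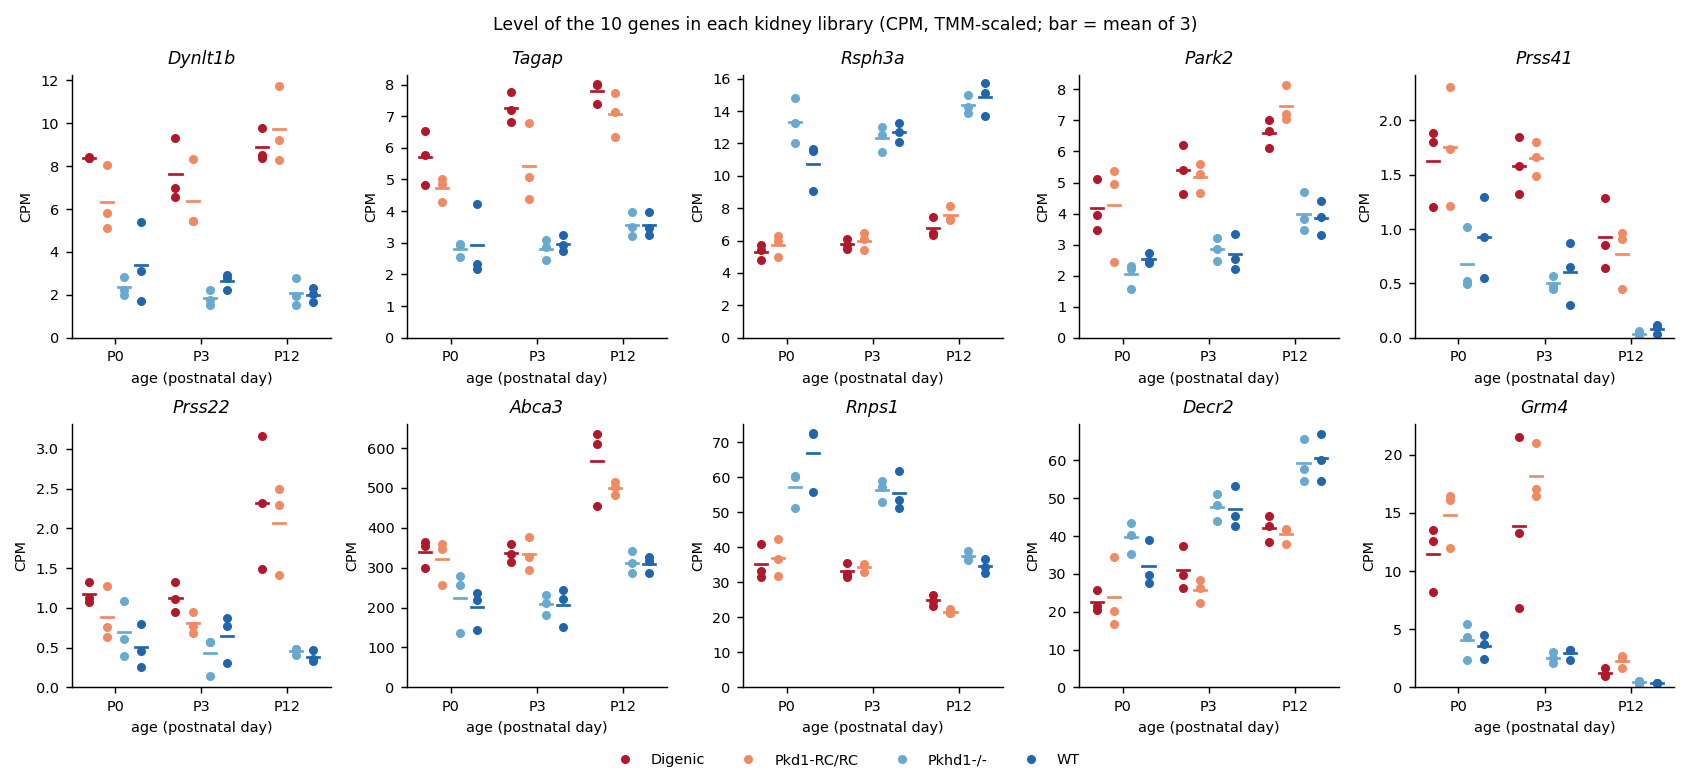
Level of each of the 10 genes (CPM, vertical axis from 0) in every kidney library at P0, P3 and P12, with points for libraries and short bars for the mean of 3, coloured by genotype. Digenic and Pkd1-RC/RC points lie above Pkhd1-/- and WT points for 7 genes and below them for Rsph3a, Rnps1 and Decr2, without overlap at P12 in all 10.

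Rnps1 was also lower in carriers at all ages without overlap. Its lowest, median and highest carrier libraries read 31.6, 34.9 and 42.3 CPM at P0, against 51.3, 60.3 and 72.6 CPM in non-carriers. At P12 these values were 21.2, 22.9 and 26.5 CPM in carriers and 32.8, 36.5 and 39.1 CPM in non-carriers. The log2 difference was -0.77 ± 0.108, -0.74 ± 0.0677 and -0.64 ± 0.0535 at P0, P3 and P12. The level of Rnps1 alone is uncertain, since reads may be split with Gm9825: with the counts of Gm9825 added, the groups overlapped and the differences were -0.11, -0.03 and 0.06.

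Abca3, the lipid transporter and the highest of the 10 genes per length at P12, read 454.8, 508 and 635 CPM in carriers at P12 (lowest, median and highest) and 286, 314 and 341 CPM in non-carriers. Carriers thus held 1.71 times the level of non-carriers at P12, and 1.56 and 1.62 times at P0 and P3. At P0 the groups overlapped, with 257 to 364 CPM in carriers and 135 to 279 CPM in non-carriers. On the log2 scale the difference was 0.65 ± 0.174, 0.69 ± 0.108 and 0.77 ± 0.0827 at P0, P3 and P12.

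Decr2, the peroxisomal reductase, was lower in carriers, with 37.8, 41.8 and 45.3 CPM (lowest, median and highest) at P12, against 54.4, 58.9 and 67.03 CPM in non-carriers. The log2 difference was -0.62 ± 0.165, -0.76 ± 0.0949 and -0.54 ± 0.0694 at P0, P3 and P12. At P0 Pkd1-RC/RC replicate 1 stood at 34.4 CPM, above WT replicates 1 and 3 at 29.6 and 27.5 CPM, and the groups overlapped.

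The proteases had few counts and, at P12, differed more than the other 8 genes on the log2 scale. Prss41 had 73, 34 and 52 counts in Digenic and 62, 24 and 70 counts in Pkd1-RC/RC libraries at P12, against 0, 4 and 2 counts in Pkhd1-/- and 8, 2 and 9 counts in WT libraries. Mean levels there were 0.849 ± 0.286 CPM in carriers and 0.0568 ± 0.0437 CPM in non-carriers (SD, n = 6 each), which is 14.9 times as much in carriers on few counts. At P0 the means were 1.69 ± 0.423 CPM in carriers and 0.800 ± 0.331 CPM in non-carriers, with overlap. The log2 difference of Prss41 was 1.11 ± 0.277, 1.55 ± 0.230 and 3.97 ± 0.421 at P0, P3 and P12. Prss22 read 1.41, 2.30 and 3.16 CPM in carriers at P12 (lowest, median and highest), against 0.331, 0.434 and 0.484 CPM in non-carriers. Its groups overlapped at P0 and P3, where the log2 difference was 0.80 ± 0.318 and 0.84 ± 0.318, and it was 2.38 ± 0.223 at P12.

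Tagap was higher in carriers at each age and did not overlap. It read 6.34, 7.56 and 8.03 CPM in carriers at P12 (lowest, median and highest), against 3.21, 3.48 and 3.98 CPM in non-carriers, and the log2 difference was 0.86 ± 0.178, 1.11 ± 0.119 and 1.06 ± 0.0967 at P0, P3 and P12. Tagap shares sequence with Tagap1. With the counts of Tagap1 added, the groups overlapped at all ages, with log2 differences of 0.25, 0.35 and 0.14. Tagap also overlaps the antisense gene E430024P14Rik. The sources used here do not say whether the counting used strand, so reads of that pair cannot be told apart.

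Park2 read 6.11, 7.03 and 8.15 CPM in carriers at P12 (lowest, median and highest), against 3.31, 3.85 and 4.71 CPM in non-carriers. The log2 difference was 0.90 ± 0.204, 0.93 ± 0.128 and 0.84 ± 0.107 at P0, P3 and P12. At P0 Pkd1-RC/RC replicate 2 at 2.45 CPM fell among the non-carriers, which reached 2.73 CPM.

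Grm4 differed by more than any other of the 10 genes at P0 and P3. At P3 it read 21.6, 6.84 and 13.3 CPM in Digenic and 17.04, 16.5 and 21.03 CPM in Pkd1-RC/RC kidneys, against 3.01, 2.096 and 2.51 CPM in Pkhd1-/- and 3.21, 2.37 and 3.25 CPM in WT kidneys. The lowest carrier library, Digenic replicate 2, was still above every non-carrier library. The log2 difference was 1.78 ± 0.226, 2.53 ± 0.231 and 2.02 ± 0.228 at P0, P3 and P12. Of 6 neuron markers 5 were listed, and their sum ran from 4.75 to 26.2 CPM in carriers and from 5.56 to 35.9 CPM in non-carriers at P3, so the neuron list overlapped between the groups.

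In all, 7 genes were higher and 3 lower in carriers. Their carrier and non-carrier libraries did not overlap for 4 of 10 genes at P0 (all listed genes 1.76%), 9 at P3 (1.54%) and 10 at P12 (3.42%), a result of the selection. For Rnps1, Grm4, Tagap and Rsph3a the libraries separated at all 3 ages in the same direction, as for 0.0831% of the listed genes (15 genes). With the fit of each age, 5 of the 10 genes passed an adjusted p under 0.05 at P0 (3 up and 2 down; 0.993% of tested genes), 9 at P3 (6 up and 3 down; 1.83%) and 10 at P12 (7 up and 3 down; 18.2%), again a product of the selection.

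The size of the shift can be read separately with and without Pkhd1, in libraries that are not shared. The genes were chosen for a like shift in both carrier genotypes, so estimates that lie close together are a product of the selection. At P12 Dynlt1b differed by 2.11 ± 0.219 between Digenic and Pkhd1-/- kidneys and by 2.28 ± 0.219 between Pkd1-RC/RC and WT kidneys. Rsph3a differed by -1.09 ± 0.105 and -0.97 ± 0.104 in the same comparisons. Rnps1, without the counts of Gm9825, differed by -0.60 ± 0.0756 and -0.68 ± 0.0756. In some genes these estimates lay further from each other. Prss41 differed by 4.77 ± 0.643 between Digenic and Pkhd1-/- kidneys and by 3.18 ± 0.542 between Pkd1-RC/RC and WT kidneys. Grm4 was at 1.41 ± 0.323 for Digenic against Pkhd1-/- and 2.63 ± 0.325 for Pkd1-RC/RC against WT.

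**Figure D2:**
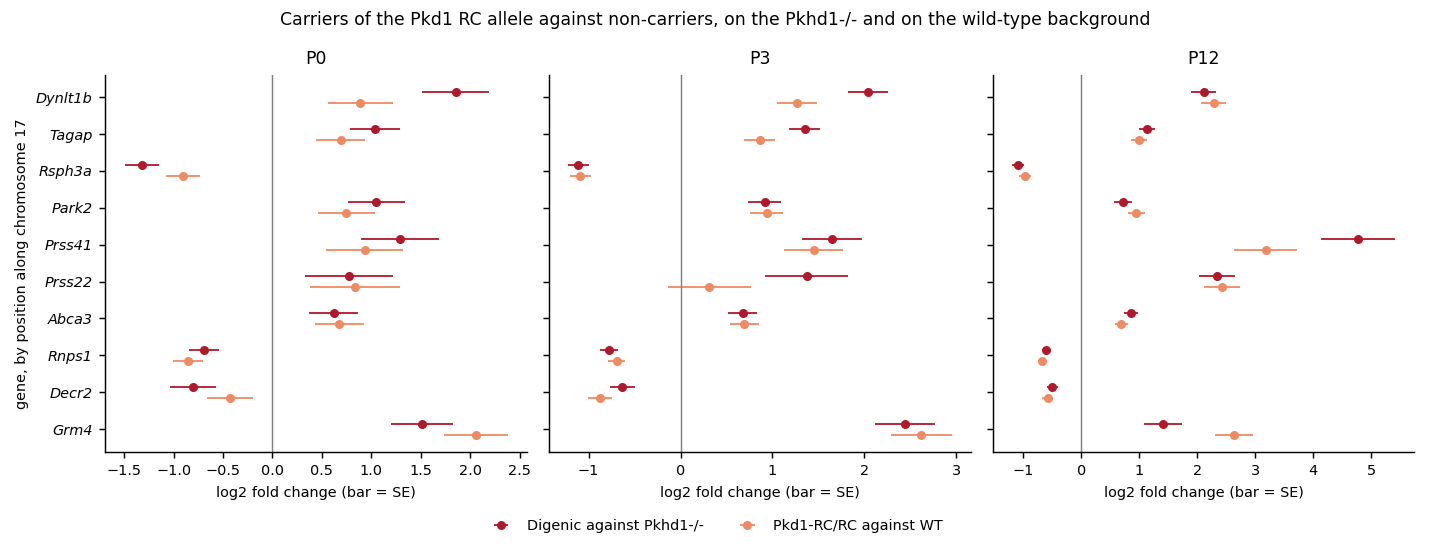
Log2 fold change of the 10 genes (horizontal axis; bars are SE) for Digenic against Pkhd1-/- and for Pkd1-RC/RC against WT at P0, P3 and P12. Each gene has the same sign in both comparisons at all 3 ages, which the selection asked for, and at P12 Grm4 is at 1.41 and 2.63.

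The selection set carriers against non-carriers over all groups, which favours groups that lie close together on each side, Pkhd1-/- and WT kidneys included. Between Pkhd1-/- and WT kidneys none of the 10 genes passed edgeR's quasi-likelihood test at P0 (0 of 10; 0.0111% of tested genes), at P3 (0; 0.0166%) or at P12 (0; 0.0333%). At an unadjusted p under 0.05 there were 0, 1 and 0 of the 10 genes, and by DESeq2 0 at each age. The log2 changes lay between -0.55 and 0.47 at P0, between -0.58 and 0.08 at P3 and between -1.34 and 0.31 at P12, where Prss41, with at most 9 counts per library, gave the lowest.

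Digenic and Pkd1-RC/RC kidneys share the RC allele and differ in Pkhd1, and the selection asked that both shift alike, which favours small differences here. None of the 10 genes passed at P0 (0 of 10; 0.0388% of tested genes) or P3 (0; 0.46%), and 1 passed at P12 (19.5%). At an unadjusted p under 0.05 there were 0 and 1 at P0 and P3, and by DESeq2 0 at both ages. Grm4 was the 1 gene, at 0.948, 1.03 and 1.69 CPM in Digenic and 2.51, 2.72 and 1.66 CPM in Pkd1-RC/RC kidneys at P12. Digenic replicate 3 lay just above Pkd1-RC/RC replicate 3, so the groups overlapped. The log2 change was -0.91 ± 0.30 (edgeR, Benjamini-Hochberg adjusted p = 0.0494). That call was lost without Digenic replicate 1 or 2 or Pkd1-RC/RC replicate 1 or 2, with adjusted p-values between 0.120 and 0.139. It was also lost without Pkhd1-/- replicate 1 or 2 or any WT replicate (adjusted p between 0.0576 and 0.0651), without both libraries whose headers differ (-0.62, adjusted p = 0.274) and with the replicate number as a block (-0.88, adjusted p = 0.0841).

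Whether the RC allele moves a gene by the same amount with and without Pkhd1 was asked with an interaction term, where the selection for a like shift in both carrier genotypes also favours small values. None of the 10 genes passed at P0 (0 of 10; 0.00554% of tested genes), P3 (0; 0% of tested genes, where 1457 of 18043 had an unadjusted p under 0.05 and DESeq2 called 214) or P12 (0; 8.57%). At an unadjusted p under 0.05 there were 0, 1 and 1 of the 10 genes, and by DESeq2 0 at each age. The interaction at P12 ran from -1.22 ± 0.452 for Grm4 to 1.59 ± 0.912 for Prss41 (edgeR adjusted p = 0.107 and 0.296), so differences of that size did not pass with 3 libraries per group.

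The ages, which played no part in the choice of genes, were compared within each genotype. From P0 to P12, 6 of 10 passed in Digenic (4 up and 2 down; 32.9% of tested genes), 9 in Pkd1-RC/RC (6 up and 3 down; 41.5%), 6 in Pkhd1-/- (3 up and 3 down; 46.9%) and 8 in WT kidneys (4 up and 4 down; 49.8%). The count in Pkhd1-/- kidneys was near the share of all genes and became 5 with DESeq2 size factors. In Digenic kidneys 4 passed without both libraries whose headers differ. Grm4 fell in all 4 genotypes. In Digenic kidneys it averaged 1.22 ± 0.405 CPM at P12 and 11.4 ± 2.82 CPM at P0, and in Pkd1-RC/RC kidneys 2.30 ± 0.565 CPM at P12 and 14.9 ± 2.47 CPM at P0 (SD, n = 3 each). In Pkhd1-/- kidneys it averaged 0.456 ± 0.157 CPM at P12 and 4.04 ± 1.60 CPM at P0, and in WT kidneys 0.369 ± 0.0188 CPM at P12 and 3.56 ± 1.02 CPM at P0 (SD, n = 3 each). The ages did not overlap in any genotype. The log2 change in WT was -3.27 ± 0.377 (edgeR adjusted p = 5.16e-08), and those in the mutants lay between -3.22 and -2.70. Rnps1 fell in all genotypes as well, by 0.50 ± 0.112 in Digenic kidneys (edgeR adjusted p = 0.000857) and by 0.95 ± 0.112 in WT kidneys (adjusted p = 7.32e-08). Decr2, Abca3 and Park2 rose in all 4. Decr2 rose by 0.92 ± 0.177 and Abca3 by 0.63 ± 0.201 in WT (edgeR adjusted p = 9.87e-05 and 0.0104). The call of Abca3 was lost in WT without P0 replicate 3 (0.44, adjusted p = 0.0936) and in Pkd1-RC/RC without P0 replicate 2 (0.50, adjusted p = 0.0786). In Pkhd1-/- kidneys Abca3 rose by 0.49 ± 0.201 (adjusted p = 0.0473), which was lost in 23 of 36 fits that each left out 1 library and became 0.21 without Pkhd1-/- P0 replicate 1. Park2 rose by 0.61 ± 0.218 in WT (edgeR adjusted p = 0.0209), a call lost without P0 replicate 1 or 2 or P12 replicate 1 or 3 of WT. Its call in Digenic kidneys (0.66 ± 0.215, adjusted p = 0.0182) was lost without P0 replicate 1 or 2 or P12 replicate 1, whose header gives another age. That call was also lost without both libraries whose headers differ (0.61, edgeR adjusted p = 0.0659). Dynlt1b fell by 0.77 ± 0.278 in WT (adjusted p = 0.0224), but by 0.27 without WT P0 replicate 2, the library at 5.40 CPM, and the call was then lost (adjusted p = 0.419), as it was without WT P12 replicate 3 (-0.65, adjusted p = 0.0991). Rsph3a rose by 0.35 ± 0.121 in Digenic, 0.40 ± 0.120 in Pkd1-RC/RC and 0.47 ± 0.119 in WT kidneys (edgeR adjusted p = 0.0252, 0.00857 and 0.00182), and its change in Pkhd1-/- kidneys was 0.11 ± 0.118 (adjusted p = 0.482). Its call was lost in Pkd1-RC/RC without P0 replicate 2 or P12 replicate 3, and in Digenic without P0 replicate 2 or 3 or P12 replicate 1. The Digenic call of Rsph3a was also lost without both libraries whose headers differ (0.27, edgeR adjusted p = 0.147). Tagap rose in Pkd1-RC/RC kidneys by 0.58 ± 0.186 (adjusted p = 0.0127), a call lost without P0 or P12 replicate 1. Its changes of 0.45 in Digenic, 0.34 in Pkhd1-/- and 0.28 in WT kidneys were not called. Without WT P0 replicate 2 the rise in WT was called (0.66, edgeR adjusted p = 0.00267). With the replicate block it was called in Digenic, Pkhd1-/- and WT kidneys (0.735, 0.613 and 0.598). That block lost the calls of Dynlt1b and Park2 in WT, Park2 and Rsph3a in Digenic, and Abca3 and Decr2 in Pkhd1-/- kidneys. Decr2 was then at 0.40 in Pkhd1-/- kidneys (edgeR adjusted p = 0.173). In Pkd1-RC/RC kidneys the block lost the calls of Rsph3a, Prss41 and Prss22.

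Prss41 and Prss22 parted ways between carriers and non-carriers as the kidneys aged. The change of Prss41 was -0.82 ± 0.403 in Digenic kidneys (edgeR adjusted p = 0.123), and in Pkd1-RC/RC kidneys it fell by 1.17 ± 0.405 (adjusted p = 0.0207), a call lost without P0 replicate 3 (-0.93, adjusted p = 0.103) or P12 replicate 2, whose header differs (-0.91, adjusted p = 0.110). In Pkhd1-/- and WT kidneys it fell by 4.31 ± 0.594 and 3.41 ± 0.498 (edgeR adjusted p = 9.61e-07 and 2.21e-06). Prss22 rose by 1.21 ± 0.415 in Pkd1-RC/RC (adjusted p = 0.0197), a call lost without 4 of its 6 libraries in turn, and its change was 0.98 ± 0.410 in Digenic (adjusted p = 0.0666), -0.60 ± 0.442 in Pkhd1-/- (adjusted p = 0.269) and -0.37 ± 0.449 in WT kidneys (adjusted p = 0.518). The difference between carriers and non-carriers was larger at P12 than at P0 by 2.87 ± 0.488 for Prss41 and by 1.58 ± 0.429 for Prss22 on the log2 scale. These 2 of 10 genes passed the test of that change over all genes (8.99% of tested genes), both upward. Dynlt1b, at 0.83, did not pass in that fit. It passed with DESeq2 size factors, the DESeq2 test or sex in the fit, and in 6 of 36 fits that each left out 1 library. As the genes were chosen on carrier differences, this is given as a description.

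**Figure D3:**
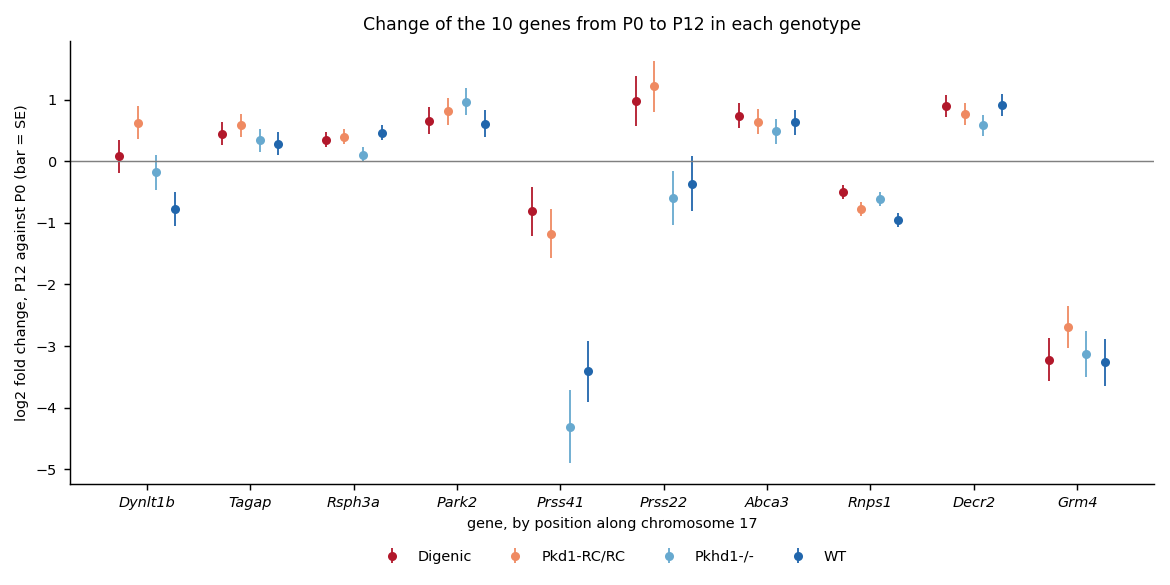
Log2 fold change from P0 to P12 (vertical axis; bars are SE) of the 10 genes in Digenic, Pkd1-RC/RC, Pkhd1-/- and WT kidneys. Points of the 4 genotypes lie close together for Grm4, Decr2 and Abca3, while Prss41 is at -0.82 and -1.17 in the carrier genotypes and at -4.31 and -3.41 in the others.

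The 10 genes fall into clusters along the chromosome. Dynlt1b (chr17:6430112-6436293, mm10), Tagap (chr17:7926000-7934897) and Rsph3a (chr17:7945653-7979824) lie 18.1, 16.6 and 16.6 Mb before Pkd1, and Park2 (chr17:10840384-12063361) 12.5 Mb before it. Prss41 (chr17:23836785-23844172), Prss22 (chr17:23993535-23998100), Abca3 (chr17:24351950-24410201) and Rnps1 (chr17:24414675-24425895) lie within 1 Mb before Pkd1. Decr2 (chr17:26081211-26090329) and Grm4 (chr17:27422387-27513341) lie 1.49 and 2.83 Mb after it. Pkd1 itself is at chr17:24549950-24596514.

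Some neighbours went opposite ways and others the same way. By their own counts, Tagap was higher and Rsph3a, 10716 bases further on the same strand, lower in carriers at all ages. With the counts of Tagap1 added, Tagap overlapped at all ages (log2 differences of 0.25, 0.35 and 0.14). E430024P14Rik, which runs against both on the other strand, was lower in carriers, with differences of -0.65, -0.58 and -0.51 in log2 CPM at P0, P3 and P12, without overlap. Abca3 was higher and Rnps1, 4363 bases away, lower by its own counts. With the counts of Gm9825 added, Rnps1 overlapped at all ages (-0.11, -0.03 and 0.06). Abca17, a transporter gene of the same subfamily 881 bases from Abca3, was higher in carriers by 0.86, 0.93 and 0.75 without overlap. D330041H03Rik, which overlaps Abca3 and starts 22 bases from Rnps1, overlapped, with differences of 0.08 and 0.31 at P3 and P12.

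The RefSeq promoters (GRCm38.p6, 250 bases before to 50 after the start) of Tagap and Rsph3a are shown because the counts of these adjacent genes differed in opposite directions. For Tagap that holds only without the counts of Tagap1, since carriers and non-carriers overlapped once these were added. A part of the promoters in the differences was not tested. Capitals mark matches, on either strand and with overlapping matches merged, to 6 motifs. They were the TATA box (letters TATAAA), the box of nuclear factor Y (letters CCAAT), the GC box (letters GGGCGG), a part of the X-box bound by cilium gene regulators (letters GTTGCC), the cAMP response element (letters TGACGTCA) and the E-box (letters CACGTG).
Tagap (chr17:7925750-7926049, plus strand): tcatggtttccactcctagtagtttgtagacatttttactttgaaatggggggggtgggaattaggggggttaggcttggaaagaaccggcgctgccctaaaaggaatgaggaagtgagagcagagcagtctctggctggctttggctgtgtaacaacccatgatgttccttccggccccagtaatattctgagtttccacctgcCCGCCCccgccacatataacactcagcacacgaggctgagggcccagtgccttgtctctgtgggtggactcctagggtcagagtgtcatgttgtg
Rsph3a (chr17:7945364-7945663, plus strand): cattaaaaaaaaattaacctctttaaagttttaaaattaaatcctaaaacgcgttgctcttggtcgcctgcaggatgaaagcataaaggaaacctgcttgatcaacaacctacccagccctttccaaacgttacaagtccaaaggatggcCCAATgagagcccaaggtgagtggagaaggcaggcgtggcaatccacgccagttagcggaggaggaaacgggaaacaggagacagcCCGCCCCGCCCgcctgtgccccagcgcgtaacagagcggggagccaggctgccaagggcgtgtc
The GC box letters were in both, as in 35.7% of 32851 promoters, and the CCAAT letters in that of Rsph3a, as in 37.4%. Tagap held 6 and Rsph3a 15 CG pairs, against a median of 7 over all promoters.

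Among the other 527 listed genes within 20 Mb of Pkd1, carrier and non-carrier libraries did not overlap for 5.69%, 7.97% and 9.11% at P0, P3 and P12. The shares were 1.62%, 1.29% and 3.18% on other chromosomes, and 1.63%, 1.63% and 3.91% on chromosome 17 beyond 20 Mb. Within the stretch, the 10 genes included, the shares at P12 were 25.3% at 0 to 1 Mb from Pkd1 (83 genes), 12.8% at 1 to 5 Mb, 3.17% at 5 to 10 Mb, 2.92% at 10 to 15 Mb and 20.7% at 15 to 20 Mb (58 genes). All 10 genes, chosen on this difference, did not overlap at P12. They raise each of these shares except that at 5 to 10 Mb, and shares by distance were not taken without them. Of the other genes, 35 differed on average over the ages by at least as much as Decr2, whose 0.65 on the log2 CPM scale was the smallest of the 10, and 23 of these were higher and 12 lower in carriers. The largest of them reached 1.48. At the limit of the stretch, Arid1b and Runx2 just inside (19.2 Mb before and 19.9 Mb after Pkd1) and Tfb1m and Supt3 just outside (20.99 and 20.2 Mb) overlapped between carriers and non-carriers at all ages. Of the genes within 50 kb of Pkd1 (Caskin1, Traf7, Rab26, Rab26os, Tsc2, Nthl1 and Slc9a3r2, by position alone), Traf7 and Rab26os did not overlap at P0, differing by 0.22 and -0.70, and each gene overlapped at P3 and P12. Slc9a3r2 was lower in carriers by -0.23, -0.31 and -0.35 at P0, P3 and P12. It passed at P12 (edgeR adjusted p = 0.0208), as did 18.2% of tested genes, while Traf7 and Rab26os did not pass at P0 (0.133 and 0.0872).

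**Figure D4:**
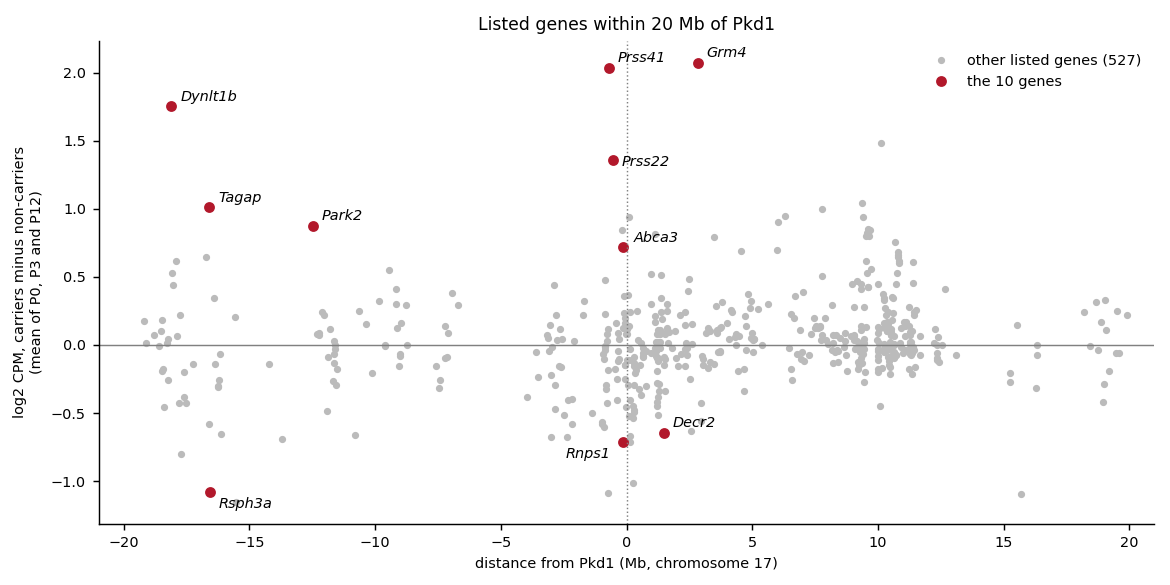
Mean difference in log2 CPM between carriers and non-carriers over P0, P3 and P12 (vertical axis) against the distance from Pkd1 along chromosome 17 in Mb (horizontal axis) for the 10 genes (red, named) and the other 527 listed genes (grey). The 10 genes lie between 18.1 Mb before and 2.83 Mb after Pkd1, and the largest difference of a grey point is 1.48.

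Counts of the 4 genes with near-identical copies were also added to those of their copies, a step chosen after the data were seen. Copies were listed genes that hold at least 20% of the 50-base words of the gene and do not overlap it. For Rnps1 and Gm9825 the sum did not separate carriers from non-carriers at any age. It averaged 67.1, 63.1 and 43.8 CPM in carriers and 72.3, 64.5 and 42.1 CPM in non-carriers at P0, P3 and P12, with log2 differences of -0.11, -0.03 and 0.06. Rnps1 made up 53.8%, 53.5% and 53.1% of that sum in carriers, against 85.9%, 86.8% and 85.7% in non-carriers. Gm9825 alone read 18.1, 20.6 and 21.95 CPM in carriers at P12 (lowest, median and highest), against 5.35, 5.99 and 6.61 CPM in non-carriers, so the pseudogene was higher where Rnps1 was lower. How the authors' alignment treated reads that fit both places was not tested.

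Tagap and Tagap1 together overlapped at all ages, with log2 differences of 0.25, 0.35 and 0.14, where Tagap alone gave 0.89, 1.11 and 1.07 by the same measure. Tagap1 itself was lower in carriers at P12 without overlap, at 7.29 ± 0.610 CPM in carriers and 9.77 ± 0.701 CPM in non-carriers (SD, n = 6 each). Rsph3a and Rsph3b together stayed apart at all ages, at -0.75, -0.84 and -0.77, and Rsph3b alone was lower in carriers as well, at -0.42 ± 0.0772 at P12. The 4 Dynlt1 genes together differed by 0.67, 1.06 and 1.23 and did not overlap at P3 and P12, while Dynlt1b alone gave 1.44, 1.65 and 2.22.

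**Figure D5:**
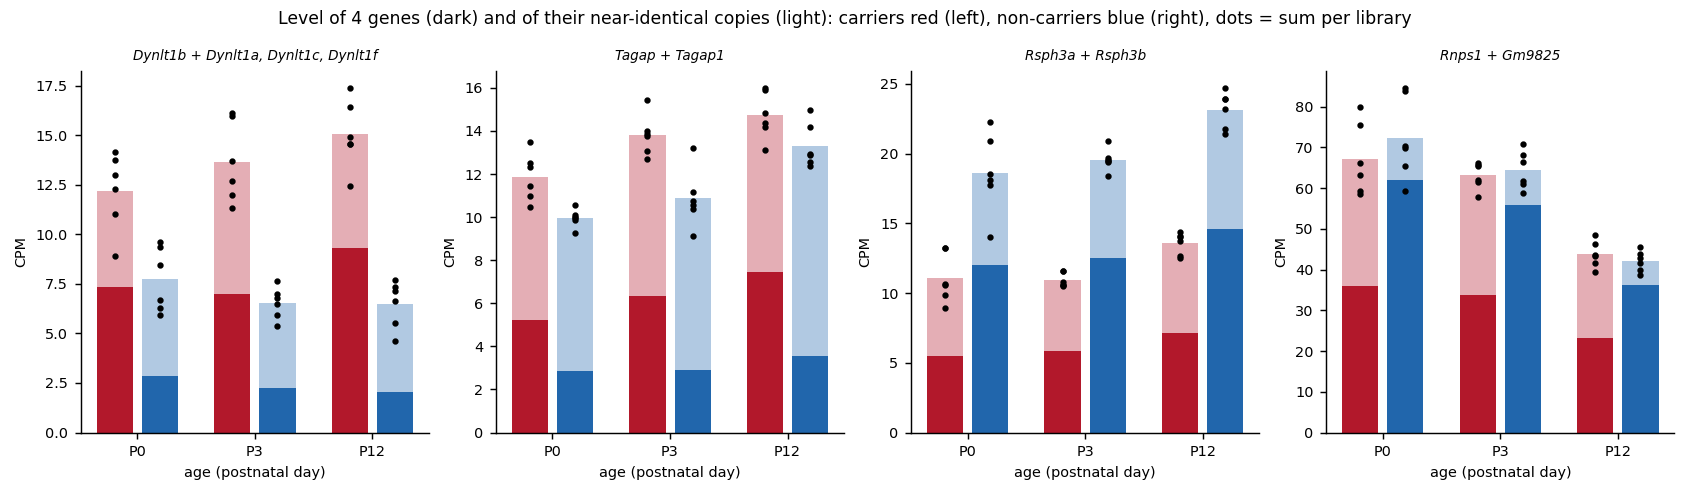
Mean level (CPM, bars from 0) of Dynlt1b, Tagap, Rsph3a and Rnps1 (dark) stacked with their listed near-identical copies (light) in carriers (red, left) and non-carriers (blue, right) at P0, P3 and P12, with dots for the sum in each library. The summed bars of Rnps1 and Gm9825 are at 43.8 and 42.1 CPM at P12 although Rnps1 alone differs, and those of Rsph3a and Rsph3b stay lower in carriers.

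For each of the 10 genes the 3 genes most like it were named by the highest Pearson r of log2 CPM over the 36 libraries after the mean of each age was taken out. Carrier and non-carrier libraries enter together, so a gene that separates them scores high, and r is a description with no test. The 30 entries held 15 different genes with r from 0.756 to 0.956, of which 8 lie within 20 Mb of Pkd1. Rsph3a was most like E430024P14Rik (0.956) and Rnps1 most like Rps2 (0.892), a ribosomal protein gene, both in the stretch. Dynlt1b, Tagap, Park2 and Grm4 were most like Gm14292, a processed pseudogene on chromosome 2, with r of 0.916, 0.906, 0.918 and 0.904, and Gm9825 came next for each.

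Of the 7 most alike genes on other chromosomes, 4 share sequence with a gene of the stretch. Besides Gm9825 they included Gm14292, with 69.5% of its 50-base words in Wtap, and Gm15487 on chromosome 6, with 88% in Atp6v0c. Gm14292 differed between carriers and non-carriers by 1.80, 1.68 and 1.74 on the log2 CPM scale at P0, P3 and P12, and Wtap, 11.6 Mb before Pkd1, by -0.33, -0.30 and -0.25. Gm15487 differed by 0.93, 1.14 and 1.07, and Atp6v0c by -0.39, -0.19 and -0.18. In both of these pairs the copy elsewhere had the higher and the chromosome 17 gene the lower mean in carriers, as for Gm9825 and Rnps1, although Wtap overlapped at P0 and Atp6v0c at P3 and P12. Ptk2b, Lipa and Myo5b, the genes most like Abca3 (r of 0.88, 0.87 and 0.867), share none of their 50-base words with another listed gene.

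Lists of relatives of the 10 genes by function leave the 10 genes out. Of all tested genes, 18.2% passed between carriers and non-carriers at P12, and 49.8% between P12 and P0 in WT kidneys, and the counts below are to be read against these shares. Of 14 exon junction, ASAP and nonsense-mediated decay genes, the partners of Rnps1, 1 was higher and 1 lower in carriers at P12 (edgeR, adjusted p under 0.05 over all genes), with a median log2 difference of -0.07, against 0.00 over all tested genes and -0.64 for Rnps1. The 2 were Casc3 at 0.17 and Sap18 at -0.22. Of 15 peroxisomal beta-oxidation genes, 3 were higher and 2 lower at P12 (median -0.02), among them Acox2, an acyl-CoA oxidase, at -0.59 ± 0.0737 and the transporter Abcd2 at 0.64 ± 0.126, while Decr2 was at -0.54. Both rose and fell in that list, whereas from P0 to P12 in WT 12 rose and 1 fell (median 0.99), as did Decr2 with a rise of 0.92. Of 11 other ABCA transporters 2 were higher at P12, Abca17 beside Abca3 (0.78 ± 0.165) and Abca1 (0.33 ± 0.102). Of 7 radial spoke genes 4 were lower at P12 (median -0.39), Rsph3b at -0.42 and Rsph10b at -0.87 ± 0.204 among them. The shift of Rsph10b was not alike in both carrier genotypes. For Digenic against Pkd1-RC/RC kidneys at P12 it was at -1.61 ± 0.305, with an interaction of -1.96 ± 0.409 (edgeR adjusted p = 0.00389 and 0.0150).

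Among 8 channel-activating protease and sodium channel genes 6 were higher in carriers at P12 (median 0.33), beside 2.38 and 3.97 for Prss22 and Prss41. The sodium channel subunits Scnn1b and Scnn1g were at 0.78 ± 0.0483 and 0.81 ± 0.0635 (edgeR adjusted p = 2.97e-06 and 1.47e-05). Their interactions at P12 were 0.715 ± 0.0962 and 0.769 ± 0.126 (edgeR adjusted p = 0.00296 and 0.00733), so their carrier difference was larger without Pkhd1. Of the 12 mast cell tryptase and related genes listed with Prss22 and Prss41, Tpsb2 alone was in the table, at 1.13 at P12 without passing. Of 11 parkin partners 1 was higher and 2 lower at P12 (median -0.08), with Uchl1 at 0.50 ± 0.116 and Mfn2 at -0.19 ± 0.0565. The carrier difference of Uchl1 was also larger without Pkhd1, with an interaction of 0.87 ± 0.232 (edgeR adjusted p = 0.0377). The 4 measured genes for other metabotropic glutamate receptors and their Homer partners had median differences of 0.08, -0.12 and -0.05 at P0, P3 and P12. Of the 9 other dynein light chains Dynlt1f passed at P3 (0.97 ± 0.168) and Dynlt1c at P12 (0.66 ± 0.209), both near-identical to Dynlt1b. Dynlt1f had the other sign at P0 and P12, at -0.70 ± 0.420 and -0.22 ± 0.318. For Digenic against Pkd1-RC/RC kidneys at P12 it was at 1.61 ± 0.464 (edgeR adjusted p = 0.0287).

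Markers of cell types in which some of these genes are known were summed in carriers and non-carriers. For Tagap, 8 of 15 lymphocyte markers were listed, none at 0 in all libraries, and their sum was 21.05 to 72.8 CPM in carriers and 20.7 to 26.1 CPM in non-carriers at P12, with overlap. Of these 8 markers 3 were higher and 1 lower in carriers at P12 (median 0.53), among them Ptprc, the leukocyte marker CD45, at 0.91 ± 0.153 and the B cell receptor component Cd79b at 0.64 ± 0.122, and 5 were higher in Digenic when set against Pkd1-RC/RC kidneys. The carrier difference of Cd79b was larger without Pkhd1, with an interaction of 1.22 ± 0.243 at P12 (edgeR adjusted p = 0.0129). At P3, where Tagap separated as well, the lymphocyte sum was 27.2 to 35.8 CPM in carriers and 28.03 to 32.2 CPM in non-carriers, with overlap. For Rsph3a, 6 of 10 multiciliated cell markers were listed, with 15.6 to 22.3 CPM in carriers and 17.8 to 22.1 CPM in non-carriers at P12. Of these 6 markers 1 was higher and 1 lower in carriers at P12, Ccdc40 at 0.745 ± 0.234 and Dnah5 at -0.58 ± 0.164. The shift of Dnah5 was not alike in both carrier genotypes, with an interaction of -1.25 ± 0.329 (edgeR adjusted p = 0.0364). For the proteases, 6 of 6 mast cell markers were listed, with 46.3 to 61.1 CPM in carriers and 37.7 to 45.4 CPM in non-carriers at P12, a separation not seen at P0 or P3. Of these 6 markers 1 passed at P12, the receptor gene Kit at 0.29 ± 0.0729. For Abca3, 2 of 6 surfactant genes were listed (Sftpd and Napsa), with 1213 to 2088 CPM in carriers and 1274 to 1618 CPM in non-carriers at P12. Their sums overlapped, but Sftpd alone passed as higher in carriers at P12 (1.83 ± 0.450) and Napsa alone at P3 (0.41 ± 0.0864). Summed kidney markers were at 7179 to 9248 CPM in carriers and 9307 to 10390 CPM in non-carriers at P12, without overlap, but overlapped at P0 and P3. The part of these cell markers in the differences was not tested.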

How the data were processed

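The authors deposited a table of raw counts per gene, one column per library, with gene lengths in bases and 36 columns of normalized per-sample values that were not used here. Per the labels' protocols, RNA of whole kidneys was sequenced as 150-base read pairs. Per the series' design text reads went through MAP-RSeq 2.1.0, and the submitters' processing notes name TopHat2, Bowtie, featureCounts, edgeR and mm10; the sources used here do not say whether strand was used. Every listed gene averaged at least 8.75 counts, and 99.0% were placed on GENCODE M21. Groups came from the labels. Nothing there says how replicates were drawn, so p-values measure only the spread between these libraries.

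The counts were fitted with edgeR 4.0.16 in R 4.3.3 (TMM, filterByExpr, robust quasi-likelihood, Benjamini-Hochberg over all tested genes, 0.05), the 12 libraries of an age together for genotypes and all 36 for ages, after the procedure was tested on simulated data. Levels are CPM from the 36-library scaling, log2 CPM has a prior count of 2, and RPKM divides CPM by the deposited length. The 10 genes, the lists and the tests were chosen with earlier results of these data known. Named besides the 10 genes were those within 50 kb of Pkd1, the outermost genes inside and the nearest outside 20 Mb, the 3 most alike per gene, and up to 2 called genes per list with the smallest adjusted p. Genes adjoining the 10 and genes sharing sequence with them were named by position and sequence after the values were seen. Alternatives were DESeq2 1.42.0, its size factors, no filter, the replicate number or the sex read from Y-linked genes as a term, all 36 libraries in the fits by age, removal of a length trend, leaving out each library or both with differing headers, and, added after the data were seen, counts summed over copies. Some neighbouring and similar genes are not reported here.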

Additional observations from a re-analysis of the deposited data

Results flagged for a closer look

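Dynlt1b in WT P0 replicate 2 stood far from the other 5 non-carrier libraries of that age, at 5.40 CPM. It was the only library of its kind among 60 groups of 6 libraries examined over the 10 genes, where chance picks out about 1 group in 20. Without it, the fall of Dynlt1b between P0 and P12 in WT kidneys was no longer called.

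The difference of Prss41 between carriers and non-carriers was larger at P12 than at P0 by 2.87 ± 0.488 on the log2 scale, and that of Prss22 by 1.58 ± 0.429. Both genes were chosen on the difference between carriers and non-carriers, so these values are a description. Leaving out 1 library at a time gave 2.60 to 3.30 for Prss41 and 1.35 to 1.76 for Prss22. Prss41 had 0 to 9 counts in the non-carrier libraries at P12, so its size rests on few counts there.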

How the results depend on the processing

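Of the 10 genes, 5 passed between carriers and non-carriers at P0, the contrast they were chosen on (0.993% of tested genes), against 9 with the DESeq2 test, 9 in the fit of all 36 libraries and 3 to 7 when 1 library was left out (3 without Digenic replicate 1 or 2, Pkhd1-/- replicate 2 or WT replicate 3). Between Digenic and Pkd1-RC/RC kidneys at P12 the 1 call became 0 with DESeq2 size factors, without the filter, with the replicate block, in the fit of all 36 libraries and without both libraries whose headers differ, and 0 to 1 when 1 library was left out. All other counts of the 10 genes stayed within 1.5 times the given ones under the other settings. Signs turned in these cases, none of them called except Rnps1: Rnps1 between carriers and non-carriers at P12 became 0.055 with counts of copies added, and Park2 in the change of the carrier difference with age became 0.001 with sex in the fit. Leaving out 1 library gave ranges that cross 0 for Prss22 from P0 to P12 in WT (-0.69 to 0.10), Dynlt1b from P0 to P12 in Pkhd1-/- (-0.45 to 0.003), and the change of the carrier difference for Park2 (-0.194 to 0.047) and Decr2 (-0.016 to 0.264). The cause of these changes was not tested. Over single genes and settings, 2593 values kept direction and side of the threshold, 76 lost the call, 21 gained it, 10 turned sign and 11 moved without a test.

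Replicate numbers are shared between groups, but same-numbered libraries did not vary together: r was over 0.1 in 4 of 18 pairs at P0, 7 of 18 at P3 and 4 of 18 at P12. With the replicate block, 4 of the 10 genes passed between carriers and non-carriers at P0, and from P0 to P12 5 in Digenic, 6 in Pkd1-RC/RC, 5 in Pkhd1-/- and 7 in WT kidneys. Depth limits Prss41 most, with 0 to 9 counts in non-carriers at P12, and near-identical copies limit Dynlt1b, Rsph3a, Tagap and Rnps1.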
